A study of Mus musculus with 8 samples.

Results

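Transcripts of 10 genes that mark cardiac macrophages were examined in the left ventricle with septum of 12-month-old mice. The genes are C1qa, C1qb, C1qc, Cd14, Cd68, Csf1r, Mrc1, F13a1, Cd163 and Lyve1. Every probe carrying one of these symbols was taken, which gave at least 1 probe for each of the 10 genes, of 18120 distinct symbols on the array, and 12 of its 25697 probes. C1qc and Lyve1 stood in the table under their older symbols, C1qg and Xlkd1, and were found through RefSeq synonyms. The study compared 4 heterozygotes for a knock-in deletion, a model of increased late sodium current per its title, with 4 wild-type littermates. All mice were on a Swiss Agouti background, and each gave 1 Illumina bead array. The allele lies in the germline, so every cell type of these mice carries it. Whole ventricular tissue was used, so fewer cells of a type and less RNA per cell cannot be told apart.

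Macrophages live between the muscle cells of the healthy heart, where a large part descends from embryonic precursors and renews itself locally, and monocytes from the blood add to them after injury. They clear debris and dying cells, and they secrete complement, growth factors and matrix-modifying proteins. The resident population is commonly described by scavenger receptors such as CD163, the mannose receptor and LYVE1, while complement C1q and CD68 are shared by most tissue macrophages. Several of the 10 genes are not exclusive to macrophages: LYVE1 also marks lymphatic endothelium, and CD14 is found on monocytes and neutrophils.

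Between 10094 and 11545 probes were detected per array, with the largest number in heterozygote 3. A probe was called detected at a detection p under 0.01. The heart muscle genes Myl2, Myh6 and Actc1 lay between 14.04 and 14.57 on all 8 arrays, on a normalized log2 scale that ended at 14.61. Heterozygote 3 stood apart. Its r with other mice averaged 0.950, while each remaining mouse averaged 0.971 to 0.977. Its markers of fat, lung and lymphoid cells were also high, though lung and B cell markers were high in wild type 1 too. Genotype differences and correlations of the markers are therefore given with and without this mouse. Of the 12 macrophage marker probes, 9 were detected on all 8 arrays and the Cd68 probe on 5. The second probes of Csf1r and Cd163 were detected on 0 arrays, with intensities between -3.91 and 7.68 for Csf1r and between -2.86 and 6.71 for Cd163, and only the other 10 probes were tested.

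All 3 C1q chains were brightest in heterozygote 3, and none passed the genotype test. C1q is the recognition molecule of the classical complement pathway, built from the A, B and C chains that C1qa, C1qb and C1qc encode. C1qa had deposited intensities of 37.3, 31.5, 104.9 and 58.8 in heterozygotes 1 to 4 and of 32.7, 37.2, 37.6 and 34.0 in wild types 1 to 4. Heterozygotes 3 and 4 lay above all wild types, while heterozygote 2 lay below them. C1qb had intensities of 267.4, 302.2, 710.1 and 313.6 in heterozygotes and of 217.9, 345.9, 232.0 and 146.9 in wild types. C1qc had intensities of 374.3, 339.3, 851.5 and 448.3 in heterozygotes and of 215.1, 372.0, 331.5 and 169.2 in wild types. For both of these chains the value of heterozygote 3 was over all others, wild type 4 was the lowest mouse, and the groups overlapped through wild type 2.

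After normalization between arrays C1qa averaged 6.05 ± 0.47 in heterozygotes and 5.76 ± 0.14 in wild types (SD, n = 4 each, log2). The difference, heterozygote minus wild type here and throughout, was 0.29 (SE 0.22, limma adjusted p = 0.951). C1qb averaged 8.50 ± 0.66 against 8.01 ± 0.39, a difference of 0.49 (SE 0.32, limma adjusted p = 0.947). C1qc averaged 8.85 ± 0.60 against 8.20 ± 0.35, a difference of 0.65 (SE 0.29, limma adjusted p = 0.947) or 1.57-fold with a 95% interval of 1.01 to 2.45. In C1qc the 4 heterozygotes lay above the 4 wild types in normalized values, from 8.49 against a highest wild type of 8.43, and this held for 1.53% of all detected probes. The gap of 0.06 closed to an overlap with cyclic loess normalization (-0.02). Without heterozygote 3 the differences were 0.08 for C1qa, 0.17 for C1qb and 0.35 for C1qc (95% interval -0.07 to 0.78).

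Short stretches of promoter sequence are shown for C1qb and C1qc, which correlated most of all pairs over the 8 mice, for F13a1, whose mice ranked in nearly the same order as for C1qc, and for Cd163, which did not follow them. Each window holds 250 bases before and 50 after a RefSeq start site, read 5′ to 3′ along the gene from the RefSeq table of GRCm38.p6. Capitals mark GAGGAA or, from the other strand, its reverse complement TTCCTC, the core of the PU box bound by the myeloid factor PU.1. C1qb lies on the minus strand at chr4:136886151-136886450, C1qc on the minus strand at chr4:136892865-136893164, F13a1 on the minus strand at chr13:37050195-37050494 and chr13:37049164-37049463, and Cd163 on the plus strand at chr6:124304401-124304700.
C1qb: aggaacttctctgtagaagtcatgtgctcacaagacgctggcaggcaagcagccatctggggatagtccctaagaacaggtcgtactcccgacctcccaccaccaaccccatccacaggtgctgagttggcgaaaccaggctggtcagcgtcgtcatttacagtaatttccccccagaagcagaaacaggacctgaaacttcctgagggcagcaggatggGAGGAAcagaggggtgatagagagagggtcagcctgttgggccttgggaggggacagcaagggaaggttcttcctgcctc
C1qc: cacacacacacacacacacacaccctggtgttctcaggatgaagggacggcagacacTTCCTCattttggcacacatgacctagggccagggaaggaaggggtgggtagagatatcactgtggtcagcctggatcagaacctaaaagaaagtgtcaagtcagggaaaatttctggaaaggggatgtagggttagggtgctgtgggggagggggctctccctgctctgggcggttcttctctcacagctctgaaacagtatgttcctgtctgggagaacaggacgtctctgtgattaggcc
F13a1, first window: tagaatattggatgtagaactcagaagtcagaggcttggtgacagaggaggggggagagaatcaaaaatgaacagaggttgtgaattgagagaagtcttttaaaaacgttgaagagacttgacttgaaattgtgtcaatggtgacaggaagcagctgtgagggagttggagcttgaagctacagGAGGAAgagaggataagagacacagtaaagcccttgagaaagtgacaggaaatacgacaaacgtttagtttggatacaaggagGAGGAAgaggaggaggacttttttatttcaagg
F13a1, second window: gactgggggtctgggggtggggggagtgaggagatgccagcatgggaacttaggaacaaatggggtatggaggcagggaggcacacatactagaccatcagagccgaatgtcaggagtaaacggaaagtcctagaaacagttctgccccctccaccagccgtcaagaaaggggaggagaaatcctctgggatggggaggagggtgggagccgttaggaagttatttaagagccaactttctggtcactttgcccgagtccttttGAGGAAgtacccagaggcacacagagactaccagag
Cd163: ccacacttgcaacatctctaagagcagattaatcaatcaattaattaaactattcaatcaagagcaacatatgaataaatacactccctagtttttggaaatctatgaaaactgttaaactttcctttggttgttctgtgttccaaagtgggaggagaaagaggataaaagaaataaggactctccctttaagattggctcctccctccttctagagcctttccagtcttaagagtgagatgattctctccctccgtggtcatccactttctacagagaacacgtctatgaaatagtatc
The table held 7 windows for 6 of the 10 genes, and C1qa, Cd14, Csf1r and Lyve1 are named only. GAGGAA was found on either strand in 6 of these 7 windows, against 28.3% of all 32851 windows in the table. C1qb had 1 match at position -30 from the start site and C1qc 1 match at position -193. F13a1 had 2 matches in its first window and 1 in its second, and Cd163 had 0. Mrc1 had 3 matches and Cd68 2. The AP-1 letters TGACTCA, searched on both strands, were found only in Cd68 among the 7 windows, with 2 matches that do not overlap the PU box, against 5.20% of all windows. These are matches of letters, and no binding was measured.

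**Figure D1:**
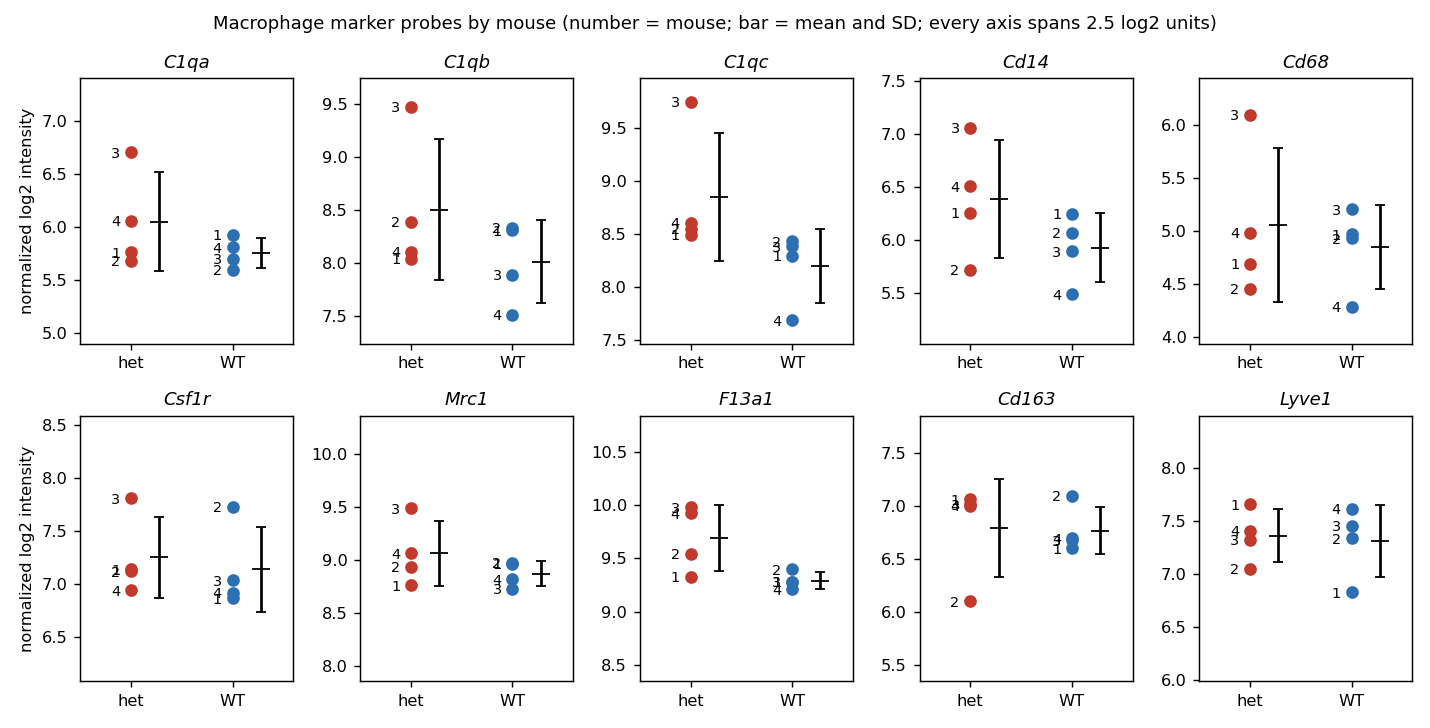
Normalized log2 intensity (vertical axes, each spanning the same range) of the 10 tested macrophage marker probes in 4 heterozygotes (red) and 4 wild types (blue), 1 point per mouse with its number and bars for mean and SD. Heterozygote 3 is the highest mouse in 8 of the 10 panels, and not in Cd163 or Lyve1.

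Heterozygote 3 was the highest mouse for each surface or lysosomal receptor, and none passed the test. Cd14, the co-receptor through which macrophages sense bacterial lipopolysaccharide, had intensities of 60.7, 32.8, 134.9 and 88.5 in heterozygotes 1 to 4 and of 43.2, 59.4, 45.4 and 24.8 in wild types 1 to 4. Heterozygotes 1, 3 and 4 lay above every wild type and heterozygote 2 within them. Its normalized difference was 0.46 (95% interval -0.14 to 1.06, limma adjusted p = 0.947) and 0.24 without heterozygote 3.

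Cd68 encodes a lysosomal glycoprotein used as a general macrophage marker. Its probe was dim, with intensities of 8.94, 4.52, 65.5 and 17.3 in heterozygotes and of 11.8, 16.9, 21.8 and 0.60 in wild types. Heterozygote 3 lay above all others. The probe was not detected in 3 mice, where the detection p was 0.0263 in heterozygote 1, 0.130 in heterozygote 2 and 0.420 in wild type 4. The normalized difference was 0.21 (95% interval -0.53 to 0.95, limma adjusted p = 0.982), and it was -0.13 without heterozygote 3. Values this near the lower end of the scale, 4.10, are compressed.

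Csf1r, the receptor for the growth factors CSF1 and IL-34 on which macrophage survival depends, had intensities of 131.5, 113.0, 228.5 and 127.3 in heterozygotes and of 72.4, 219.5, 121.4 and 91.8 in wild types. Heterozygote 3 and wild type 2 were both high and the groups overlapped. The difference was 0.11 (95% interval -0.42 to 0.65, limma adjusted p = 0.988) and -0.07 without heterozygote 3.

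Among the remaining markers, Mrc1 and F13a1 had higher heterozygote means and Cd163 and Lyve1 had nearly equal ones, and none passed the test. Mrc1, the mannose receptor, had intensities of 460.6, 450.3, 717.0 and 633.7 in heterozygotes and of 344.2, 537.8, 430.1 and 385.5 in wild types. Heterozygotes 3 and 4 exceeded every wild type. The normalized difference was 0.19 (95% interval -0.19 to 0.57) and 0.05 without heterozygote 3.

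F13a1 encodes the A subunit of coagulation factor XIII, the transglutaminase that cross-links fibrin. It had intensities of 710.0, 705.8, 986.4 and 1161 in heterozygotes and of 430.9, 724.2, 635.7 and 519.5 in wild types. Wild type 2 lay above heterozygotes 1 and 2, and the other wild types lay below every heterozygote. After normalization F13a1 averaged 9.69 ± 0.31 in heterozygotes and 9.29 ± 0.08 in wild types (SD, n = 4 each, log2), a difference of 0.40 (SE 0.17, limma adjusted p = 0.947) or 1.32-fold with a 95% interval of 1.02 to 1.71. Without heterozygote 3 it was 0.31 (95% interval -0.05 to 0.67). Heterozygote 4, at 9.93, was as high as heterozygote 3, at 9.98, while heterozygote 1, at 9.33, lay below wild type 2.

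Cd163, the scavenger receptor for haptoglobin-haemoglobin complexes, had intensities of 123.4, 47.3, 131.1 and 133.3 in heterozygotes and of 58.6, 136.4, 90.5 and 75.5 in wild types. Heterozygote 2 was the lowest mouse and wild type 2 the highest. The difference was 0.03 (95% interval -0.48 to 0.53), or -0.05 without heterozygote 3, and the sign changed in 5 of the 8 fits that each left out 1 mouse. Lyve1, a hyaluronan receptor, had intensities of 197.8, 107.2, 163.3 and 186.1 in heterozygotes and of 70.4, 164.3, 169.0 and 159.7 in wild types. Wild type 1 and heterozygote 2 were the low mice. The difference was 0.05 (95% interval -0.39 to 0.49), 0.06 without heterozygote 3, -0.05 without heterozygote 1 and -0.11 without wild type 1.

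Over the 10 tested probes 0 passed an adjusted p under 0.05 with limma, where 0.0% of all 10547 detected probes passed. At an unadjusted p under 0.05 there were 2, C1qc (0.0469) and F13a1 (0.0368), both higher, against 4.67% of all detected probes in either direction. The difference was positive for 10 of 10 probes, with a median of 0.25, while 50.1% of all detected probes were positive with a median of 0.00. Without heterozygote 3 the difference was positive for 7 of 10, with a median of 0.07, against 54.2% of all probes. In that fit 0 of the 10 had an adjusted p under 0.05 (0.0% of all probes) and 0 an unadjusted p under 0.05 (7.75% of all probes). The median SE over all detected probes was 0.18, and the number of arrays limits precision for each of the 10.

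**Figure D2:**
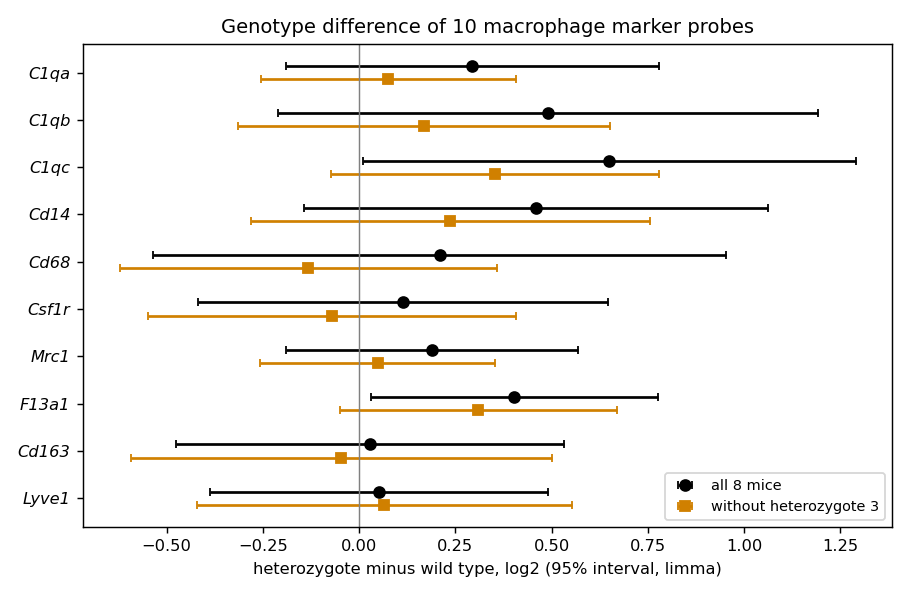
Heterozygote minus wild type difference in log2 intensity (horizontal axis, limma estimate with 95% interval) for the 10 macrophage marker probes, from all 8 mice (black circles) and without heterozygote 3 (orange squares). Without that mouse the estimates of C1qa, C1qb, C1qc, Cd14, Mrc1 and F13a1 are nearer 0, those of Cd68, Csf1r and Cd163 are below 0, and Lyve1 is at 0.06 against 0.05.

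Heterozygote 3 was the highest of the 8 mice in 8 of 10 probes, against 19.0% of all detected probes. Its excess over the median of the other 7 mice differed between the genes. It was 1.36 on the log2 scale for C1qb, 1.32 for C1qc and 1.16 for Cd68, and these were the 3 of 10 probes with an excess of at least 1, against 5.11% of all probes. Cd14 had an excess of 0.99, C1qa of 0.95, Csf1r of 0.77, F13a1 of 0.66 and Mrc1 of 0.56. Cd163 had 0.32, with heterozygote 3 in rank 3 of 8, and Lyve1 had -0.09, in rank 6. The median excess was 0.86 over the 10 probes and -0.10 over all detected probes.

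The markers differed in how far this mouse exceeded the rest. The mean of the C1q chains minus the mean of Mrc1, F13a1, Cd163 and Lyve1 was 0.19 in heterozygote 3 and between -0.37 and -0.77 in the other heterozygotes, and it ran from -1.08 to -0.41 in wild types. These are differences within a mouse of log2 intensities of different probes, so only their spread over mice can be read. The mean over all 10 probes was 8.07 in heterozygote 3, 7.32, 7.15 and 7.46 in heterozygotes 1, 2 and 4, and 7.23, 7.39 and 7.22 in wild types 1 to 3, with wild type 4 the lowest of all.

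The median r over pairs of markers was higher with heterozygote 3 than without it, though single pairs such as Cd163 with Lyve1 (0.54 and 0.56) went the other way. Over all 8 mice the 45 pairs of markers had a median Pearson r of 0.64, from -0.37 for C1qb with Lyve1 to 0.94 for C1qb with C1qc, and 38 pairs were positive. Over the 7 mice without heterozygote 3 the median was 0.18, the range -0.71 to 0.77, and 34 pairs were positive. Over all pairs of detected probes the median was 0.01 with 8 mice and 0.00 with 7, and the median size of r, sign left out, was 0.33 in both cases. Lyve1 had a negative r with 7 of the other 9 markers over 8 mice, and Cd163 (0.54) was the marker with which its r was highest.

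Of the 3 pairs of C1q chains, C1qb with C1qc kept the highest r when heterozygote 3 was left out, and both pairs with C1qa came near or below 0. C1qa and C1qb correlated at r = 0.76 over 8 mice (Spearman rho 0.07) and at -0.12 over 7 mice (rho -0.39). C1qa and C1qc correlated at 0.79 (rho 0.31) and at 0.02 (rho -0.04). C1qb and C1qc correlated at 0.94 over 8 mice (exact permutation p = 0.00885, adjusted over the 45 pairs 0.0794, rho 0.67 with exact p = 0.0831) and at 0.77 over 7 mice (exact permutation p = 0.0708, rho 0.50). Without heterozygote 3 and wild type 4, the mice farthest from the median of C1qb, this r was 0.00, so it rests on those mice.

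One of the 45 pairs passed after Benjamini-Hochberg adjustment, C1qc with F13a1. Over 8 mice r was 0.80 (exact permutation p = 0.000124, adjusted 0.00558) and Spearman rho 0.98 (exact permutation p = 0.000397, adjusted 0.0179). Without heterozygote 3 and wild type 4, the mice farthest from the median of C1qc, r was 0.83. Over the 7 mice without heterozygote 3 alone rho was 0.96 (exact permutation p = 0.00278, adjusted 0.125) and r 0.62 (exact permutation p = 0.144, adjusted 0.745), so the pair did not pass there. With each genotype centred on its own mean r was 0.66 (adjusted p = 0.151, permutation over all 8 mice). That permutation is not exact for values centred within a genotype. With scaling to equal medians r was 0.68 (adjusted p = 0.202, exact permutation). The genotypes hold 4 mice each, too few for a correlation within either.

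**Figure D3:**
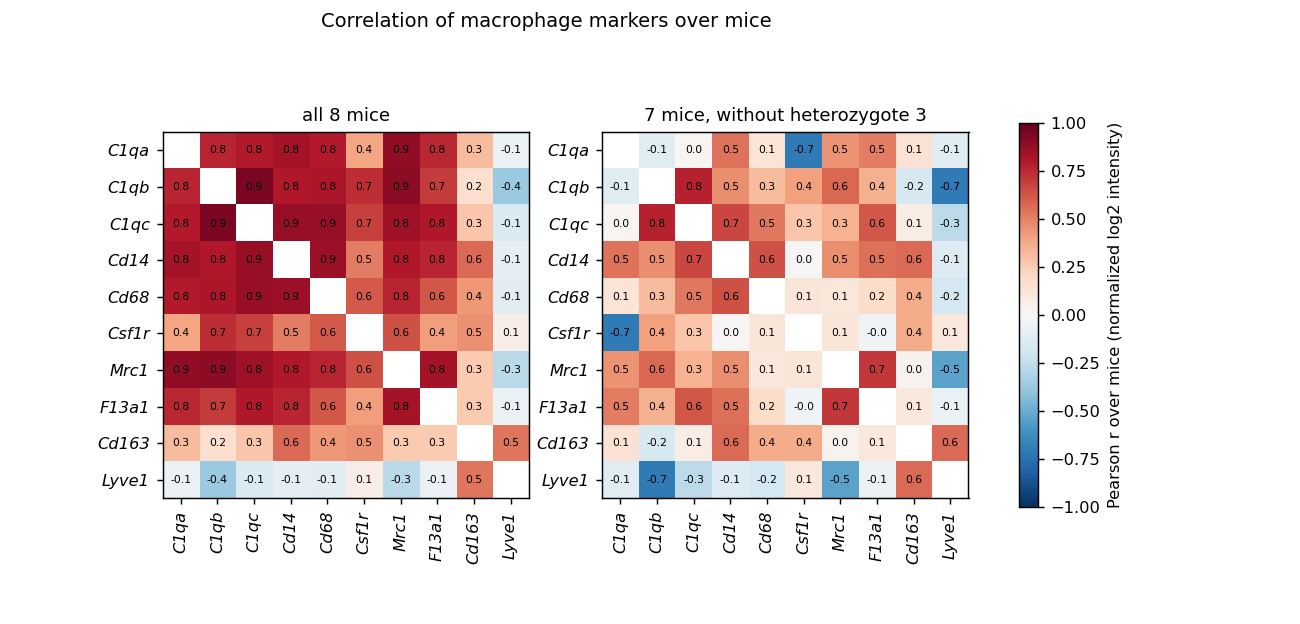
Pearson r over mice (colour and printed value) for each pair of the 10 macrophage markers, over all 8 mice on the left and over the 7 mice without heterozygote 3 on the right. On the left the 7 negative values are all pairs with Lyve1, and on the right the median of the 45 pairs is 0.18 against 0.64.

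**Figure D4:**
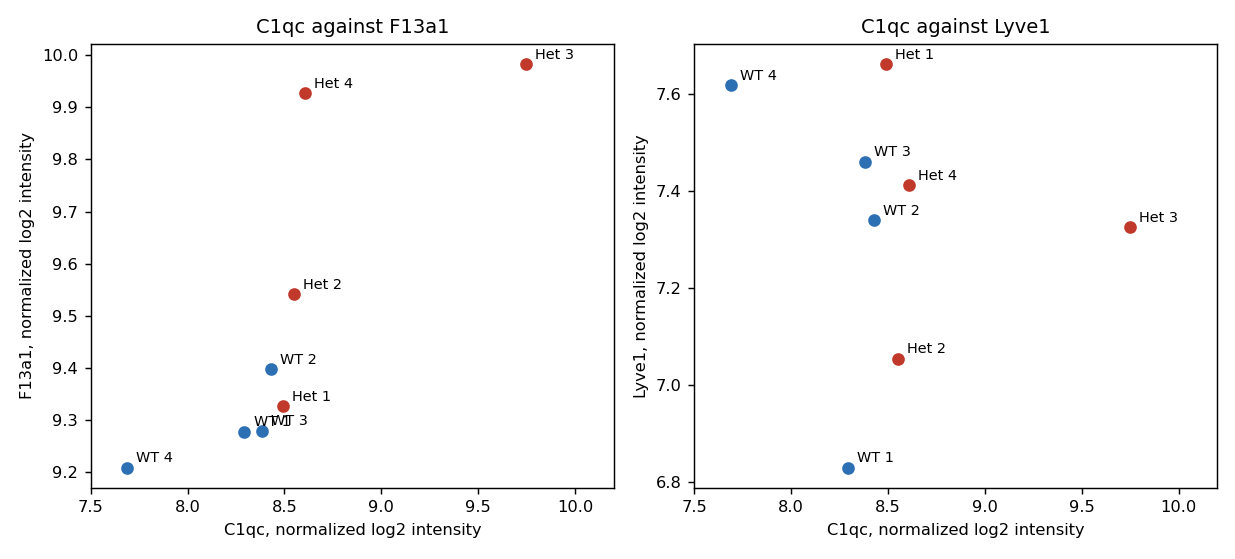
Normalized log2 intensity of F13a1 (left) and Lyve1 (right) against that of C1qc, 1 point per mouse, heterozygotes in red and wild types in blue. F13a1 follows the order of C1qc (rho 0.98) with heterozygote 3 farthest to the right, and Lyve1 does not (r = -0.15).

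Among the probes most like the mean of the C1q chains over the 8 mice were Ly6e (r = 0.980), a surface protein induced by interferon, Psap (0.980), the precursor of lysosomal saposins, Stx7 (0.978), a late endosomal syntaxin, G3bp2 (0.977), H2ac7 (0.977), Arl6ip1 (0.976) and Ly6a (0.975). In all 166 of 10537 other probes had an r over 0.9 with this mean, and 69 without heterozygote 3. Over the 7 mice without heterozygote 3 the closest probes were Sidt2 (0.992), Gimap1 (0.982), Bbof1 (0.974) and Pcbd2 (0.972), while H2ac7 had an r of 0.951 there, Stx7 of 0.891 and Ly6a of 0.835. The probes most like the mean of Mrc1, F13a1, Cd163 and Lyve1 over 8 mice were Acat2 (0.986), Hsd17b12 (0.985), Abca3 (0.978) and Slc25a1 (0.970). Car13 (0.970), Gpd2 (0.970), Slc24a3 (0.963) and Acly (0.962) completed the first 8. Slc25a1 is the mitochondrial citrate carrier and Acly the enzyme that splits citrate for lipid synthesis. These r were the highest of 10537 over few mice and are a description.

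In other lists of macrophage genes 0 genes passed the test, and the medians stand against 0.00 over all detected probes. In a core myeloid list 13 of 14 detected genes had a positive difference and 0 passed, with a median of 0.27 that was -0.11 without heterozygote 3. Heterozygote 3 was the highest mouse in 13 of the 14, and the sum of their normalized intensities was 23606 in it against 6906 to 10618 in the others. Its brightest genes were the lysozymes Lyz1 (0.21) and Lyz2 (0.20), the lysosomal protein gene Laptm5 (0.40) and the Fc receptor gamma chain Fcer1g (0.44). Without heterozygote 3 their differences were -0.15 for Lyz1, -0.30 for Lyz2, -0.13 for Laptm5 and 0.07 for Fcer1g. Adgre1, an adhesion receptor used as a mouse macrophage marker, was detected on 8 arrays at 8.29 in heterozygote 3 and 6.13 to 7.02 in the others. Itgam, Ptprc, Msr1 and Cybb were detected on 0 arrays.

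In a list of resident macrophage genes 9 of 11 detected genes had a positive difference and 0 passed, with a median of 0.17 that was 0.01 without heterozygote 3. Heterozygote 3 was the highest mouse in 8 of the 11. The brightest were Gas6 (0.26), a bridging ligand for uptake of dying cells, the selenium carrier Selenop (0.14), Cbr2 (0.12) and the chemokine Pf4 (0.27). Without heterozygote 3 the differences were 0.19 for Gas6, 0.01 for Selenop, -0.30 for Cbr2 and 0.15 for Pf4. Vsig4, a complement receptor of resident macrophages, lay at 6.85 in heterozygote 3 within the 6.65 to 7.66 of the others, so it did not share the excess. Of the recruited monocyte list 2 of 12 genes were detected on enough arrays, Lgals3 (0.40) and Plac8 (0.40), and both were highest in heterozygote 3. Without it both differences were negative, -0.17 for Lgals3 and -0.48 for Plac8. Ccr2, the chemokine receptor of recruited monocytes, was detected on 0 arrays.

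The partners of the 10 markers were mixed. Of a list of complement genes and other partners of C1q, such as C1qbp, Calr and Lrp1, 5 of 11 were positive and 6 negative. Of these 0 passed, and the median of -0.02 became -0.38 without heterozygote 3. The brightest were the C1 inhibitor Serping1 (0.16), the central component C3 (0.06), C1qbp (-0.37) and the complement regulator Cd59a (-0.31). Without heterozygote 3 they were at -0.14 for Serping1, -0.38 for C3, -0.32 for C1qbp and -0.48 for Cd59a. C4b, which C1 cleaves, exceeded in heterozygote 3 the median of the other mice by 2.38, and those ran from 6.70 to 8.54. Of the CD14 and Toll-like receptor 4 pathway 10 of 12 were positive and 0 passed, with a median of 0.12, and 0.10 without heterozygote 3. The brightest were Irf3 (-0.02), the adaptor Myd88 (0.35), the ubiquitin ligase Traf6 (0.10) and the adaptor Tirap (0.10). Without heterozygote 3 they were at -0.15 for Irf3, 0.18 for Myd88, 0.06 for Traf6 and 0.20 for Tirap.

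The list for the CSF1 receptor pathway also held genes of CSF2 and its separate receptor. Of this list 4 of 5 detected genes were positive and 0 passed, with a median of 0.29. Without heterozygote 3 the median was 0.26, which is the value of Csf2ra, with 3 of 5 positive. The brightest gene was Pik3r1 (0.29, and 0.32 without heterozygote 3), and the negative gene was Grb2 (-0.22, and -0.16 without it). The ligand Csf1 (0.28) was at 5.19 in heterozygote 3, against 5.13 to 6.45 in the others, and its difference was 0.55 without that mouse. Heterozygote 3 was the highest mouse in 2 of the 5, Ptpn6 and the CSF2 receptor gene Csf2ra. Ptpn6 was at 7.98 in it and 5.09 to 6.07 in the others, and its difference of 0.52 was -0.12 without it. That of Csf2ra was 0.50, and 0.26 without it. Of the scavenger and haem genes 6 of 8 were positive and 0 passed, with a median of 0.12, and 0.06 without heterozygote 3. The brightest were Fth1 (0.02), Slc40a1 (0.14), Tfrc (0.12) and Blvrb (0.37). Without heterozygote 3 they were at 0.02 for Fth1, 0.21 for Slc40a1, 0.18 for Tfrc and 0.34 for Blvrb. Heterozygote 3 was the highest mouse in 1 of these 8, and its median excess over the other mice was 0.05. The 1 gene was Hp, haptoglobin, the ligand of CD163, at 11.26 in heterozygote 3 and 5.20 to 8.62 in the others. Its difference of 0.19 was -0.88 without that mouse. Of the factor XIII and hyaluronan partners 4 of 4 detected genes were positive and 0 passed, with the transglutaminase Tgm2 at 0.10, the hyaluronidases Hyal2 at 0.09 and Hyal1 at 0.45 and the hyaluronan receptor Cd44 at 0.39. Their median of 0.25 was 0.13 without heterozygote 3, where Cd44 was at 0.05, Hyal1 at 0.49, Hyal2 at 0.13 and Tgm2 at 0.13.

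Markers of some other cells were high in heterozygote 3 as well. All 7 detected adipocyte markers were highest in it, with a summed normalized intensity of 28144 against 1323 to 10446 in the other mice. Across genotypes that sum was 1323 to 28144 in heterozygotes and 3580 to 10396 in wild types, and Retn and Fabp4 were detected on 0 arrays. Of the T cell list Cd3d, Cd3e and Cd3g were highest in it and Thy1 was not, the 4 detected genes summed to 436 to 870 in heterozygotes and 290 to 643 in wild types, and Cd4 and Cd8a were detected on 0 arrays. Of the B cell list only Cd79b was detected on enough arrays, at 8.61 in heterozygote 3 and 4.14 to 7.63 in the others, and Pax5 on 0. Wild type 1 had the 7.63, and the rest were at most at 6.28. Of the lung epithelium list Scgb1a1 and Napsa were detected on enough arrays and were highest in heterozygote 3, and Ager and Cldn18 were detected on 0. Their sum was 49.7 to 11280 in heterozygotes and 50.1 to 8149 in wild types. Wild type 1 had the 8149, and mice other than it and heterozygote 3 had at most 540.

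Differences between heterozygote 3 and the rest varied over the remaining lists. Erythroid genes summed to 10325 in heterozygote 3 and 13880 to 23564 in the other mice. Their median excess in it was -1.73, and that of blood endothelium was -0.10 and that of cardiac muscle -0.24. Fibroblast markers summed to 10041 to 13340 in heterozygotes and 10437 to 11037 in wild types, with 5 of 7 highest in heterozygote 3. The 2 detected alveolar macrophage markers, Car4 and Ear2, summed to 153 to 190 in heterozygotes and 141 to 238 in wild types, and Marco and Itgax were detected on 0 arrays. Lymphatic markers summed to 925 to 2022 in heterozygotes and 851 to 2045 in wild types. Wild type 2 had the 2045 and heterozygote 3 the 2022, and Pdpn alone was highest in heterozygote 3. Pdpn (1.26), Reln (1.43) and Ccl21a (0.98) exceeded in heterozygote 3 the median of the other mice. Only Prox1 went the other way, at 6.47 in heterozygote 3 below the 7.09 to 7.59 of the others. The neutrophil genes S100a8 and S100a9 summed to 75.5 to 208 in heterozygotes and 174 to 256 in wild types, lowest in heterozygote 3, and 6 of that list were detected on 0 arrays. Mast cell markers summed to 111 to 311 in heterozygotes and 108 to 326 in wild types. Of the thymocyte and dendritic cell lists 0 genes were detected on enough arrays. The part of these other cells in the macrophage marker values of heterozygote 3 was not tested.

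**Figure D5:**
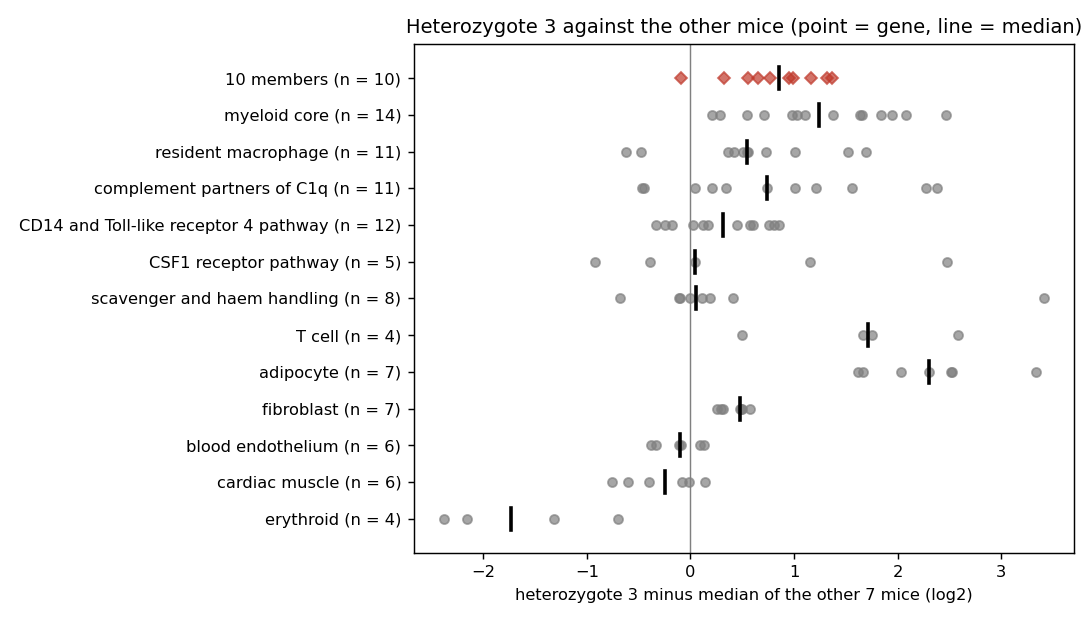
Heterozygote 3 minus the median of the other 7 mice in normalized log2 intensity (horizontal axis) for the 10 macrophage markers (red diamonds) and for the detected genes of 12 other lists (grey points), with a black line at each median. The medians are 0.86 for the 10 markers, 1.24 for the myeloid core, 2.30 for adipocyte, -0.24 for cardiac muscle and -1.73 for erythroid genes.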

How the data were processed

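Each mouse got its genotype and number from its label, which calls it a biological replicate. In the table without normalization the authors deposited an intensity averaged over beads, and beside it a detection p-value, for every probe on every array, as named in the file headers. The deposited intensities are linear and background-subtracted, since 23.0% to 27.2% of them lay below 0. A table of intensity values normalized by the authors was also deposited and served as an alternative. The sources used here do not give how it was normalized, or which scanner and program were used. No chip or scan batch was analysed.

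Intensities were corrected with normexp (limma nec, detection p-values, offset 16), quantile normalized and taken to log2. The offset pulls differences of dim probes towards 0. A probe was kept, as its own row, if at least 4 of 8 arrays gave it a detection p under 0.01, which left 10547. The genotype test was two-sided, from limma's lmFit and eBayes, and p-values were adjusted by Benjamini-Hochberg over all kept probes, with calls at 0.05. The fit without a mouse was normalized anew. Correlations were tested by exact permutation of mice, two-sided. For values centred on each genotype the same permutation is not exact. Simulated data served to check the fit. The tools were limma 3.58.1 in R 4.3.3 and, in Python 3.11.15, scipy 1.17.1 and matplotlib 3.10.9.

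Of 18120 distinct symbols, 12036 were current in RefSeq of GRCm38.p6 and 5207 were synonyms of 1 gene. Another 877 were kept as in the file. Each other list was read from the brightest detected probe per gene. Text names all 10 markers, the 4 brightest genes of the main lists and probes from among the 8 most like each marker mean. Adgre1, Vsig4, Ccr2, C4b, Csf1, Ptpn6, Csf2ra, Hp, Prox1 and the single markers of other cells were named after their values were seen. Members and lists were chosen with earlier results of these data known. Alternatives covered normalization, offset, detection filter, probe choice, array weights, mouse number as a block, eBayes options and each mouse left out. The name of the allele and 1 result are not reported here.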

Additional observations from a re-analysis of the deposited data

Results flagged for a closer look

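Among the 20 sets of 4 mice formed by the 10 probes and the genotypes, 2 held a mouse whose gap to its nearest neighbour, as a share of the range, exceeded Dixon's 95% critical value, where chance alone would give about 1 set in 20. C1qc in heterozygote 3 was 9.746, against 8.49 to 8.61 in the other heterozygotes (share 0.907). Cd163 in heterozygote 2 was 6.1, against 6.996 to 7.06 in the others (share 0.934).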

How the results depend on the processing

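No macrophage marker probe and no other probe reached an adjusted p under 0.05 with limma in any of the 18 alternatives, and the smallest adjusted p of the 10 markers was 0.208. At an unadjusted p under 0.05 the 493 probes became 1553 with array weights (heterozygote 3 at weight 0.272), 1181 of 25697 with no detection filter, 833 without heterozygote 2, 794 without heterozygote 3, 763 without wild type 2, 313 without heterozygote 4 and 292 without wild type 3. With the mouse number as a replicate block, 0 probes were called and 315 had an unadjusted p under 0.05. Deviations of mice of the same number had correlations of -0.24, -0.28, -0.42 and 0.21 for numbers 1 to 4, against -0.17 to 0.38 for different numbers. Those of numbers 1 to 3 lay below the range of different numbers, and that of number 4 lay within it. So few correlations cannot settle whether mice were paired by number.

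The median difference of the 10 probes ran from 0.07 (without heterozygote 3) to 0.42 (without heterozygote 2), and from 0.19 to 0.29 under the other settings. C1qa, C1qb, C1qc, Cd14, F13a1 and Mrc1 kept a positive sign in all 18. With single mice left out Cd163 ran from -0.0604 to 0.26, Lyve1 from -0.11 to 0.15, Cd68 from -0.13 to 0.41 and Csf1r from -0.0712 to 0.31. With array weights Cd68 was -0.0568 and Csf1r -0.0267. The median r of the marker pairs ran from 0.18 (without heterozygote 3) to 0.77 (without wild type 2). The number of pairs that passed was 1, and 0 with scaling to equal medians. It was 0 to 3 with a mouse left out (0 without heterozygote 3, 3 without heterozygote 2 and 2 without heterozygote 4). With each genotype centred it was 3, by a permutation that is not exact for centred values. These were C1qb with C1qc, C1qc with Cd68 and Cd14 with Cd68, and C1qc with F13a1 was not among them. On deposited intensity without normalization (chosen after seeing the data) it was 19, where the brightness of whole arrays also varies. Other causes were not tested. Cd68 was not tested when detection on all 8 arrays was required, and dim signal over background limits it.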
